A study of Saccharomyces cerevisiae with 7 samples.

Results

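The genes described here are those of the core histones, the linker histone and the H2A variant of budding yeast, Saccharomyces cerevisiae. They were chosen by name, as all probe sets that the platform annotation assigns to HTA1, HTA2, HTB1, HTB2, HHT1, HHT2, HHF1, HHO1 or HTZ1. The 9 genes had 10 probe sets, of 5498 probe sets named to 5449 genes. Transcripts in total RNA were measured on the Affymetrix Yeast Genome 2.0 platform, with 1 array for each culture, and levels are given as log2 expression after robust multi-array averaging (RMA). There were 4 biological replicates of the wild type, the MATa haploid BY4741 with the alleles ura3∆0, met15∆0, leu2∆0 and his3∆1, and 3 of a strain in which KANMX4 replaces HMT1 in the same background. Both groups therefore share the marker alleles, and only the deletion strain carries the drug-resistance cassette. HMT1 encodes the enzyme that makes most methylated arginine in yeast proteins. The labels name rich medium and media with and without phosphate but assign none of them to these arrays, and they do not say whether the deletion cultures came from 1 clone.

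Histones package DNA into nucleosomes, each built from pairs of H2A, H2B, H3 and H4. In budding yeast every core histone is encoded by a pair of genes, arranged as divergent H2A-H2B and H3-H4 pairs. Their transcription peaks in S phase under activators such as SBF and Spt10, and the HIR complex represses part of these genes. H4 is a known substrate of Hmt1, which methylates an arginine in its amino-terminal tail. In the R64 gene table of RefSeq, HTA1 lies next to HTB1, HTA2 next to HTB2, HHT1 next to HHF1 and HHT2 next to HHF2. No probe set was named to HHF2, the other H4 gene, and its level was not analysed here. The HHF1 probe set and 1 of the 2 HTA2 probe sets carry a suffix (_s_at) for possible matches to several transcripts, so they may also read the partner copy.

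None of the 10 histone probe sets differed between the deletion strain and the wild type by the test across all probe sets. All 10 were slightly higher in the deletion arrays, by 0.0060 (HTZ1) to 0.070 (HTB2) on the log2 scale, where 2888 of all 5498 were higher. The 10 share the same arrays, and deletion replicate 2 was the highest array for 6 of them, so their directions are not independent. The median difference was 0.038 over the 8 core probe sets, beside 0.0065 over all 5498. Differences are deletion minus wild type throughout, with standard errors (SE) and 95% intervals from limma, a linear model with a spread moderated over all probe sets. The smallest limma adjusted p among the 10 was 0.840 (HTB2). At a limma adjusted p under 0.05, 0 of 10 passed, where 11 of 5498 (0.200%) passed overall. At an unadjusted p under 0.05, 0 of 10 passed, against 6.64% overall. The 2 groups of arrays overlapped in all 10, while 7.64% of all probe sets had groups that did not overlap. With so few members, a count of 0 is near what these shares give for any 10 probe sets.

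**Figure D1:**
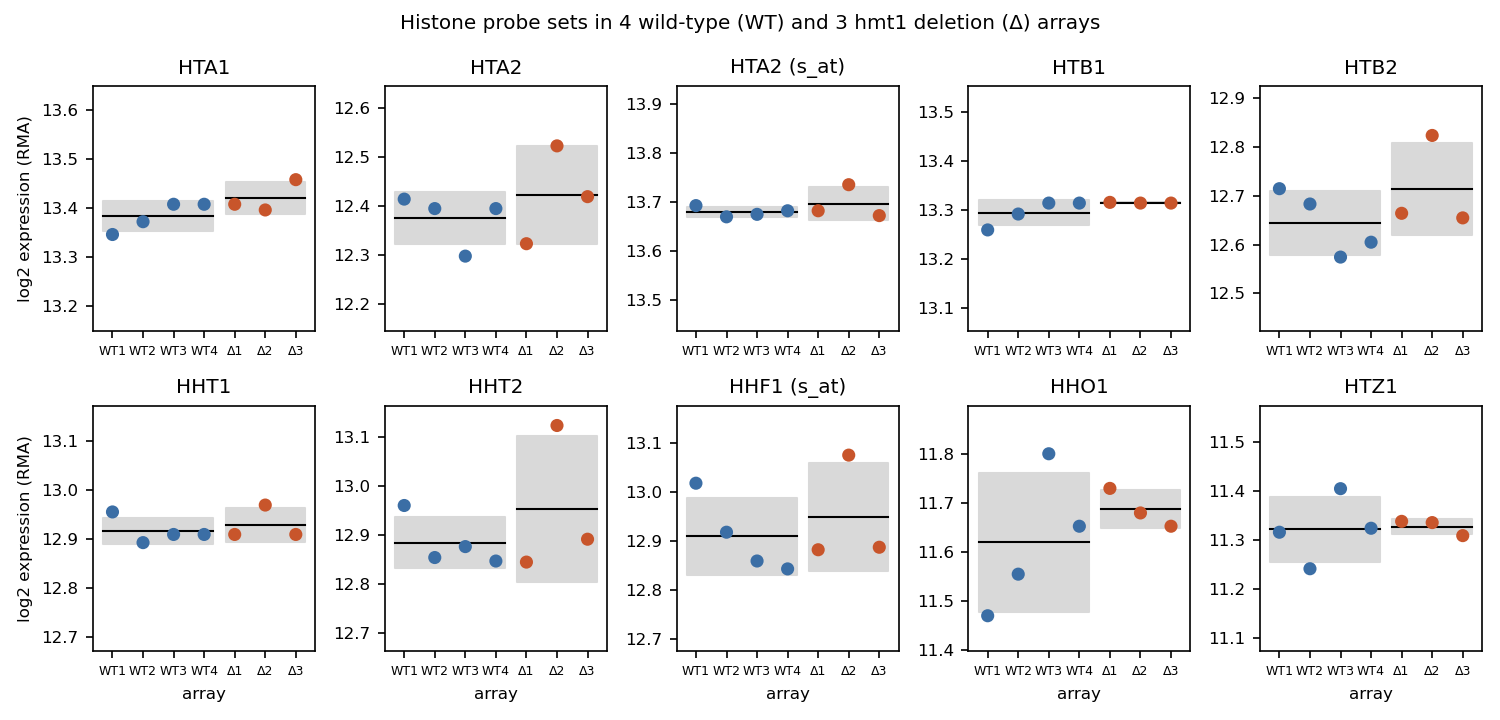
Log2 expression (RMA) of the 10 histone probe sets in each array, with 4 wild-type arrays (WT, blue) and 3 hmt1 deletion arrays (Δ, orange); the bar is the group mean, the grey band 1 SD to each side, every panel spans the same height, and s_at marks a probe set with the suffix. The groups overlap in every panel, and deletion replicate 2 is the highest array in 6 of the 10 panels.

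The 2 genes of H2A were close to the wild-type level in every array. HTA1, the copy paired with HTB1, was at 13.35, 13.37, 13.41 and 13.41 in wild-type replicates 1 to 4 and at 13.41, 13.40 and 13.46 in deletion replicates 1 to 3. Wild-type replicates 1 and 2 were the lowest arrays and deletion replicate 3 the highest, and the other arrays of both groups lay between them. HTA1 was 0.037 higher in the deletion strain (SE 0.051, 95% interval -0.082 to 0.16, limma adjusted p = 0.880). HTA2 was at 12.41, 12.39, 12.30 and 12.39 in the wild type and at 12.32, 12.52 and 12.42 in the deletion strain. Here wild-type replicate 3 and deletion replicate 1 were low and deletion replicate 2 was high, so the deletion group held both a high and a low array. The difference of HTA2 was 0.046 (SE 0.066, 95% interval -0.11 to 0.20, limma adjusted p = 0.881). The second HTA2 probe set, with the suffix, lay between 13.67 and 13.69 in the wild type and read 13.68, 13.73 and 13.67 in the deletion strain (difference 0.017, SE 0.050).

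The H2B genes also overlapped between the strains. HTB1 was at 13.26, 13.29, 13.31 and 13.31 in the wild type and at 13.32, 13.31 and 13.31 in the deletion strain. All arrays except wild-type replicates 1 and 2 were nearly equal, and the 95% interval of the difference was -0.094 to 0.13 around 0.020. HTB2 was at 12.71, 12.68, 12.57 and 12.60 in the wild type and at 12.66, 12.82 and 12.65 in the deletion strain. Deletion replicate 2 was above all wild-type arrays, and the other deletion arrays lay within their range. The difference was 0.070 (SE 0.068, 95% interval -0.087 to 0.23), the largest of the 10.

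The H3 genes HHT1 and HHT2 were both highest in deletion replicate 2, with wild-type replicate 1 next. HHT1 was at 12.96, 12.89, 12.91 and 12.91 in the wild type and at 12.91, 12.97 and 12.91 in the deletion strain (difference 0.013, SE 0.051, 95% interval -0.11 to 0.13). HHT2 was at 12.96, 12.85, 12.88 and 12.85 in the wild type and at 12.84, 13.12 and 12.89 in the deletion strain (difference 0.069, SE 0.079, 95% interval -0.11 to 0.25). Its deletion replicate 1 was the lowest of the 7 arrays, so the deletion group held both extremes. The H4 probe set, named to HHF1, was at 13.02, 12.92, 12.86 and 12.84 in the wild type and at 12.88, 13.08 and 12.89 in the deletion strain. Its deletion arrays 1 and 3 lay inside the wild-type range and replicate 2 above it, with a difference of 0.039 (SE 0.074, 95% interval -0.13 to 0.21). H4, the histone that Hmt1 methylates, thus had no detectable transcript difference at this precision in the 1 probe set named to it.

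HHO1, the linker histone H1 of yeast, had the widest spread of the 10, and its extremes both lay in the wild type. It was at 11.47, 11.55, 11.80 and 11.65 in the wild type and at 11.73, 11.68 and 11.65 in the deletion strain. All deletion arrays fell between the lowest and the highest wild-type array, with a difference of 0.068 (SE 0.084, 95% interval -0.13 to 0.26). HTZ1, the H2A.Z variant found in nucleosomes beside promoters, was at 11.32, 11.24, 11.40 and 11.32 in the wild type and at 11.34, 11.34 and 11.31 in the deletion strain. The deletion arrays were again inside the wild-type range (difference 0.0060, SE 0.058, 95% interval -0.13 to 0.14). CSE4, the centromeric H3 variant, which is not among the 9 genes, was at 9.45, 9.71, 9.40 and 9.41 in the wild type and at 9.45 in all 3 deletion arrays (difference -0.043, SE 0.084, limma adjusted p = 0.913).

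**Figure D2:**
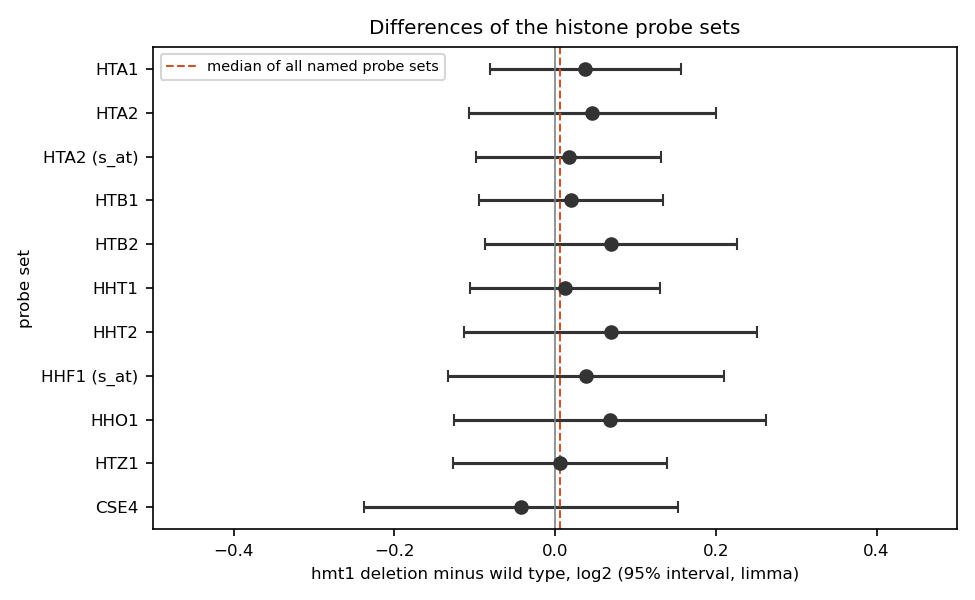
Difference between the hmt1 deletion strain and the wild type (log2, points) with 95% intervals from limma for the 10 histone probe sets and for CSE4; the dashed line is the median of all 5498 named probe sets, 0.0065. All intervals include 0, the lowest bound of the 10 is -0.13 (HHF1) and the highest is 0.26 (HHO1).

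The intervals set the size of change that these arrays leave possible. Over the 10 probe sets they ran at most from 0.912-fold (lower bound of HHF1) to 1.20-fold (upper bound of HHO1), on the scale of the deposited values. For HTA1 and HTB1 they ran from 0.945- to 1.11-fold and from 0.937- to 1.10-fold. An adjusted p above the threshold does not show that the levels were equal. The quantile step of RMA sets the probe intensities of all arrays to 1 distribution before they are summarised, so these are levels relative to the other transcripts. Array medians of the summarised values ran from 9.91 to 9.94. A higher share of cells in S phase and more histone mRNA per cell cannot be told apart in bulk RNA. The core probe sets were bright, at mean levels of 12.40 to 13.69 where the highest value on any array was 14.63, and bright probe sets respond less than in proportion to RNA. The part of this compression in the small differences was not tested.

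Several core histone probe sets varied little between arrays. The standard deviation within groups, pooled over both, was 0.020 for HTB1, 0.023 for the HTA2 probe set with the suffix, 0.030 for HHT1 and 0.031 for HTA1. Its median was 0.115 over all named probe sets and 0.104 over the 395 probe sets whose mean lay within the range of the core histones. Among those 395, 0.506% had a smaller value than HTB1 and 3.54% a smaller one than HTA1. Both lay in the upper part of that range, so the 395 are not matched to their brightness. HTB1 and HHT1 also held exactly the same value on 4 arrays, where 1.16% of all named probe sets did so on at least 4. The other core probe sets were more ordinary, with 0.075 for HTA2, 0.078 for HTB2, 0.093 for HHF1 and 0.103 for HHT2. HHO1 (0.113) was close to the median of all probe sets, and HTZ1 (0.053) was below it.

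The ratio between the copies of a histone gene was compared between the strains for H2A, H2B and H3. The difference between HTA1 and HTA2 within an array changed by -0.0091 between the groups, with SDs of 0.076 (n = 4) and 0.11 (n = 3), by an exact two-sided permutation test p = 0.971. For HTB1 over HTB2 the change was -0.050, with SDs of 0.090 and 0.095 (exact permutation p = 0.457). For HHT1 over HHT2 it was -0.056, with SDs of 0.028 and 0.12 (exact permutation p = 0.571). Without deletion replicate 2, an alternative chosen after seeing the data, all 3 changes turned positive, at 0.054 for H2A, 0.0049 for H2B and 0.0090 for H3. The 3 pairs gave Benjamini-Hochberg adjusted p between 0.857 and 0.971. The 35 splits of the arrays allow no one-sided permutation p below 0.0286, and the two-sided p doubles the smaller one-sided p. No pair could therefore have passed a threshold of 0.05, with or without adjustment. These tests cannot decide whether the ratios changed.

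The arrays separated the histone probe sets into sets with different profiles. Deletion replicate 2 was the highest array for HTA2 (both probe sets), HTB2, HHT1, HHT2 and HHF1, at 0.047 (HHT1) to 0.21 (HHT2) above the mean of the 7 arrays. In the same array the deviation from the mean was -0.0032 for HTA1 and 0.011 for HTB1. Wild-type replicate 1 was the second highest array for 5 of those 6 probe sets and the third for HTA2, but the lowest for HTA1, HTB1 and HHO1. The other arrays shared less, with wild-type replicate 3 lowest for HTB2 and the HTA2 probe set without the suffix, and highest for HHO1 and HTZ1.

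**Figure D3:**
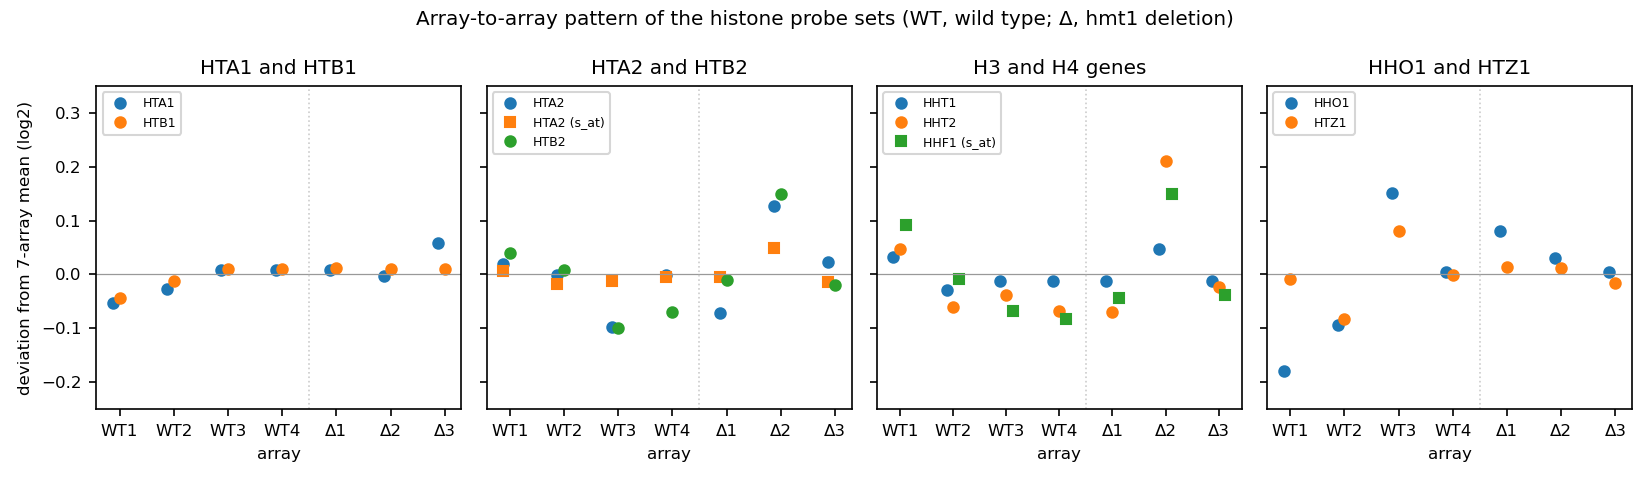
Deviation of each histone probe set from its mean over the 7 arrays (log2), by array, in 4 wild-type (WT) and 3 hmt1 deletion (Δ) arrays, with squares for probe sets that carry the suffix. HTA2, HTB2, HHT1, HHT2 and HHF1 stand highest in deletion replicate 2, where HTA1 and HTB1 lie within 0.011 of their means.

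Pearson correlations over the 7 arrays describe the same pattern. They are given without p, since the sets were formed after the values were seen and since all probe sets share the arrays and their normalization. The neighbours HTA1 and HTB1 correlated at 0.80, and HTA2 and HTB2 at 0.84. The 15 pairs among the probe sets of HTA2, HTB2, HHT1, HHT2 and HHF1 had r between 0.69 and 0.94 (median 0.84), while the 12 pairs of HTA1 or HTB1 with these lay between -0.50 and 0.024 (median -0.23). Copies of the same histone were therefore unlike each other for H2A (HTA1 with HTA2, r = -0.094) and H2B (HTB1 with HTB2, r = -0.24), and alike for H3 (HHT1 with HHT2, r = 0.91). HHO1 was most like HTB1 (r = 0.87), and HTZ1 was most like HHO1 (r = 0.73).

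These correlations rest in part on a single array, and high values are frequent with 7 arrays. Without deletion replicate 2 the 15 pairs had a median r of 0.56, with the lowest at 0.13, between the 2 HTA2 probe sets. HTA2 with HTB2 fell from 0.84 to 0.58, whereas HTA1 with HTB1 was at 0.83 and HHT1 with HHT2 at 0.89. The last values rest on few arrays as well. HTB1 was nearly equal on all arrays except wild-type replicates 1 and 2. HHT1 held the same value in wild-type replicates 3 and 4 and deletion replicates 1 and 3. How these r change without other arrays was not tested. Over all pairs of named probe sets the median r was 0.017, and 18.2% had a size above 0.7. By r among the 5497 other probe sets, HTB1 ranked 46 for HTA1 and HTA1 ranked 218 for HTB1. HTB2 ranked 21 for HTA2 and HTA2 ranked 52 for HTB2. HTB1 ranked 214 for HHO1, and HHO1 ranked 804 for HTZ1.

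**Figure D4:**
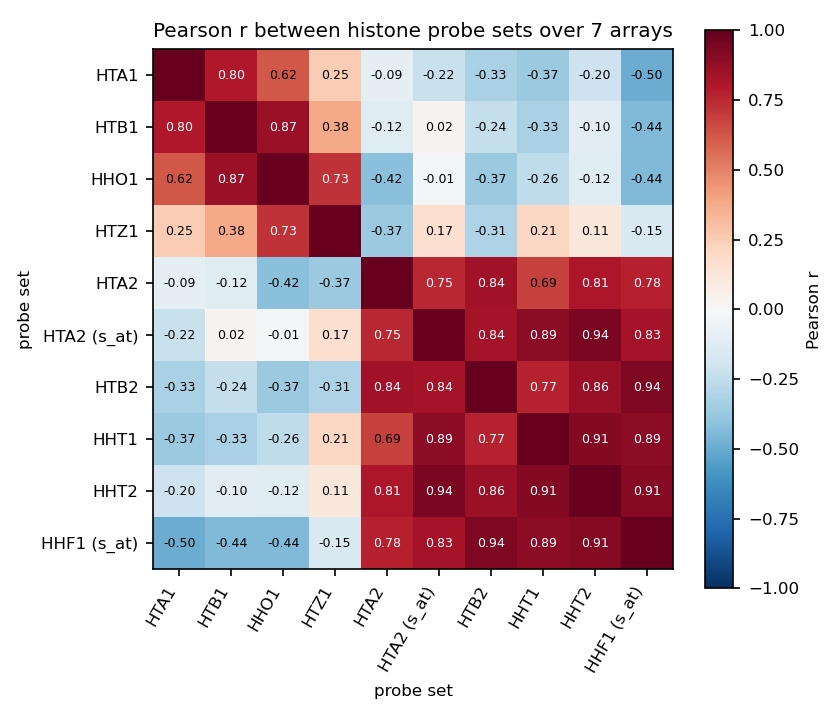
Pearson r between the 10 histone probe sets over the 7 arrays, with red for positive and blue for negative values. The probe sets of HTA2, HTB2, HHT1, HHT2 and HHF1 form a block with r of at least 0.69, and HTA1, HTB1 and HHO1 a second one with r of 0.62 to 0.87.

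The most similar probe set outside the histones had a higher r with each member than the most similar other histone had. Probe sets outside are far more numerous than the histone ones, so this order was nearly given in advance. The most similar outside probe set was SSP2 for HTA1 (r = 0.99), YGL081W for HTB1 (r = 0.996), RPL25 for HTA2 (r = 0.98) and OST2 for HTB2 (r = 0.97). It was RPL15B for HHT1 (r = 0.98), DAD2 for HHT2 (r = 0.99) and for the second HTA2 probe set (r = 0.96), and RPL39 for HHF1 (r = 0.99). For HHO1 it was PDE1 (r = 0.99) and for HTZ1 SBP1 (r = 0.98). The mean of the 8 core probe sets was followed most closely by RPL28 (r = 0.97), DAD2 (0.97), SEN54 (0.96), TLG1 (0.95) and SPG3 (0.94). The RPL genes in this list encode proteins of the large ribosomal subunit. For comparison, the best match of a named probe set to any other had a median r of 0.98, so matches of this closeness are ordinary among 5498 probe sets and 7 arrays.

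Genes that control histone transcripts were compared next. Over all 5498 probe sets, 2888 were higher and 2610 lower, and 6.64% had an unadjusted p under 0.05 in limma. Of 12 regulators of the histone genes (the HIR complex, Asf1, Rtt106, Spt10, Spt21, Yta7 and the SBF and MBF subunits), 9 were higher, 3 lower and 0 passed the limma test at an adjusted p under 0.05 (0 at an unadjusted p under 0.05). Their median difference was 0.0077. HIR2, a subunit of the HIR repressor, was at -0.074 (SE 0.063, limma adjusted p = 0.840), and SWI4, the DNA-binding subunit of SBF, at 0.14 (SE 0.15, limma adjusted p = 0.856). None of 5 genes acting in histone mRNA decay passed either (0 at an unadjusted p under 0.05), with a median of -0.0012. In that list TRF5, a nuclear poly(A) polymerase, was at -0.12 (SE 0.078) and LSM1, of the decay-promoting Lsm ring, at 0.10 (SE 0.074).

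Of 15 histone chaperones and partners, 11 were higher and 4 lower, with a median of 0.080. At a limma adjusted p under 0.05, 0 passed. At an unadjusted p under 0.05, 1 of 15 passed (HAT1), near the 6.64% of all probe sets. HAT1, the acetyltransferase of newly made H4, read 9.34, 9.13, 9.31 and 9.20 in the wild type and 9.47, 9.42 and 9.39 in the deletion strain. All deletion arrays lay above all wild-type arrays, by 0.18 in the mean (SE 0.068, 95% interval 0.023 to 0.34, limma adjusted p = 0.719). HAT2, its partner subunit, was at 0.16 (SE 0.079, limma adjusted p = 0.796), and its groups overlapped. In 2 of the 15 the groups did not overlap (the other was NAP1, an H2A-H2B chaperone, at 0.070, SE 0.066), where 7.64% of all probe sets did so.

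Of 13 subunits of the SWR1 complex, which places H2A.Z in nucleosomes, 7 were higher and 6 lower, with a median of 0.011. At a limma adjusted p under 0.05, 0 passed. At an unadjusted p under 0.05, 1 of 13 passed (SWC7), near the 6.64% of all probe sets. SWC7 was at 5.83, 6.33, 5.78 and 6.15 in the wild type and at 5.15, 5.67 and 5.31 in the deletion strain. These are low levels. The highest deletion array was under the lowest wild-type array, where 7.64% of all probe sets had groups that did not overlap. The mean showed a difference of -0.65 (SE 0.17, 95% interval -1.04 to -0.26, limma adjusted p = 0.421). With array weights it passed (-0.81, limma adjusted p = 0.0282), and over 11 alternatives the adjusted p ran from 0.0282 to 0.997. YAF9, a histone-binding subunit, was at 0.13 (SE 0.093).

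**Figure D5:**
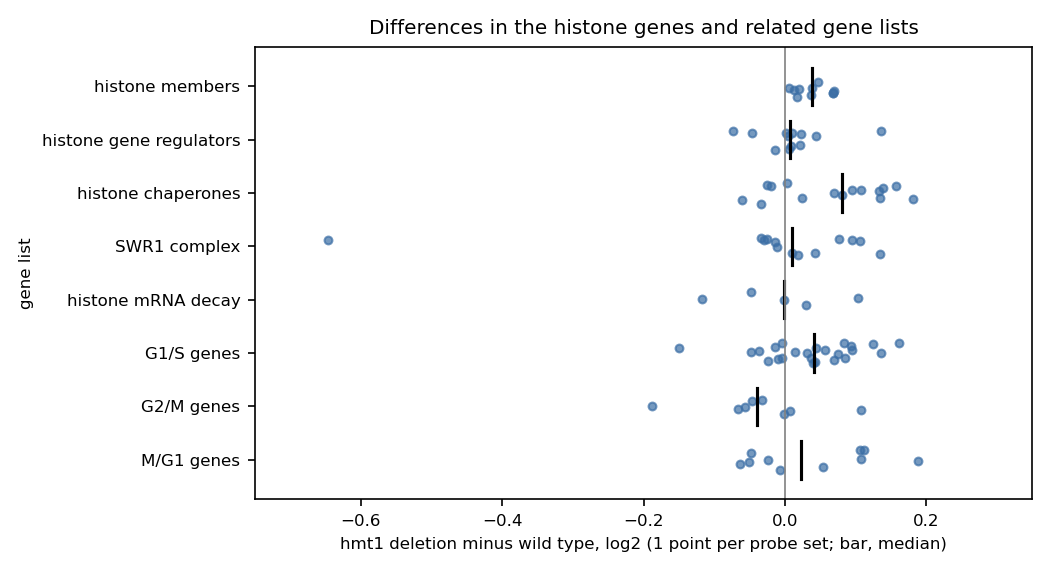
Difference between the hmt1 deletion strain and the wild type (log2) for each probe set of the histone genes and of 7 related gene lists, with the median of each list as a bar. All list medians lie between -0.039 and 0.080, and SWC7 of the SWR1 complex stands apart at -0.65.

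Because histone transcripts peak in S phase, genes of the cell cycle phases were set beside them. The 24 G1/S genes had a median difference of 0.041, with 16 higher, 8 lower and 0 past the limma adjusted threshold (0 at an unadjusted p under 0.05). CLB5, an S phase cyclin, was at 0.12 (SE 0.075) and RFA1, a subunit of the single-strand DNA-binding complex, at 0.16 (SE 0.10). The 8 measured G2/M genes had a median of -0.039, with 0 past the limma adjusted threshold. At an unadjusted p under 0.05, 1 of the 8 passed (CLB1), where 6.64% of all probe sets did so. CLB1, a mitotic cyclin, was at -0.19 (SE 0.080, limma adjusted p = 0.742), and SWI5, a transcription factor of late mitosis, at 0.11 (SE 0.090). The 10 M/G1 genes had a median of 0.023, with 0 past the limma adjusted threshold. At an unadjusted p under 0.05, 1 of the 10 passed (PIR1), beside the same 6.64%. PIR1, a cell wall protein, was at 0.19 (SE 0.076), and SIC1, the inhibitor of S phase cyclin kinases, at 0.11 (SE 0.064). The mean of the G1/S genes was highest in deletion replicate 2 (10.30), where most core histone probe sets were highest. It was nearly as high in wild-type replicate 3 (10.28), where HTB2 and the first HTA2 probe set, but not the second, were lowest. Its range was 10.12 to 10.28 in the wild type and 10.14 to 10.30 in the deletion strain. Over the 7 arrays it correlated at -0.18 (HTA1) to 0.51 (the second HTA2 probe set) with the 10 histone probe sets. With the first HTA2 probe set r was -0.046, and -0.88 without deletion replicate 2. The M/G1 mean correlated at -0.65 (HTZ1) to 0.41 (HTB1). The part of these means in the histone levels was not tested.

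The deleted gene, HMT1, averaged 11.84 ± 0.22 (SD, n = 4) over wild-type arrays against 4.77 ± 0.26 (SD, n = 3) over deletion arrays, as the labels state. The 7 a-specific genes, which mark this mating type, had array means of 11.48 to 12.41 in the wild type and 11.97 to 12.07 in the deletion strain. The 4 alpha-specific genes had low array means in both (6.36 to 6.55 and 6.35 to 6.55). So did the 12 meiosis genes (6.10 to 6.23 and 6.05 to 6.29). Of the alpha-specific genes, MF(ALPHA)1, the main alpha pheromone gene, averaged 4.08 and 4.12 in the wild type and the deletion strain. SAG1, the alpha agglutinin, averaged 9.01 and 8.83, well above the mean of its list. Within the wild type the a-specific mean was lower in replicates 1 and 3 (11.56 and 11.48) than in 2 and 4. The same arrays stood apart in the 5 probe sets that carry the name J01347 and are assigned to no gene here. Their highest value reached 4.24 in wild-type replicate 1 and 4.44 in replicate 3, against 12.29 to 12.59 elsewhere. Wild-type replicates 2 and 4 minus 1 and 3 gave -0.078 (HTZ1) to 0.039 (HTA2) over the histone probe sets. HHT2 was higher in both replicates 1 and 3 than in 2 and 4, and its deletion difference was 0.10 against 2 and 4 and 0.035 against 1 and 3. The HTZ1 difference was 0.045 against 2 and 4 and -0.033 against 1 and 3, and HTZ1 correlated at -0.70 with the a-specific mean over the 7 arrays. The median core difference was 0.030 against replicates 2 and 4 alone and 0.031 against 1 and 3 alone. The 17 ribosomal RNA control probe sets, a sign of how much ribosomal RNA was labelled, averaged 12.82 to 13.07 in the wild type and 12.61 to 12.96 in the deletion strain. Their mean correlated at 0.20 to 0.46 with the 6 probe sets highest in deletion replicate 2. With HTA1, HTB1, HHO1 and HTZ1 its r was -0.65, -0.56, -0.66 and -0.46. The mean of the G2/M genes correlated at -0.71 (HTA1) and -0.70 (HTB1) to 0.16 (HHF1) with the histone probe sets. The part of these array-wide values in the histone profiles was not tested. With 7 arrays, the precision of all these values is limited.

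Leaving out deletion replicate 2 removed the upward shift of the core median, but not that of every member. The median core difference then was -0.0035, and HHT1, HHT2, HHF1 and both HTA2 probe sets were at or slightly below the wild-type level, between -0.025 (HHF1) and -0.0027 (HTA2 with the suffix). HTA1 (0.049), HTB1 (0.020), HTB2 (0.015), HHO1 (0.072) and HTZ1 (0.0020) were above it in that comparison. For HTA1, HTB1 and HHO1 the difference was no smaller than with all arrays. None of the 10 passed the limma test without deletion replicate 2 or in any other alternative run.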

How the data were processed

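Total RNA of 7 cultures was hybridised to 7 arrays. The authors deposited log2 values for each probe set. By the submitters' processing notes they used RMA in affy 1.52.0; how probe sets were defined or filtered is not given in the sources used here. Each column was assigned by its sample's title. Gene names came from the platform annotation, and 12 of them were replaced by current symbols from the R64 table of RefSeq. The 402 probe sets without a gene stayed out. All 5498 named probe sets were compared with lmFit and eBayes of limma 3.58.1 (R 4.3.3), two-sided, with Benjamini-Hochberg adjustment over all of them and a threshold of 0.05; the calculation was tested on simulated data. The ratios of gene copies were compared by exact permutation tests. Nothing in the labels says that the cultures were grown on separate days, so p-values measure the spread between these cultures.

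The members, the gene lists and the tests were chosen with earlier results of these data known. The lists held 12 regulators, 15 chaperones, 13 SWR1 subunits, 5 decay factors, 24 G1/S, 9 G2/M (8 measured) and 10 M/G1 genes, and 7 a-specific, 4 alpha-specific and 12 meiosis markers. The text names HMT1, all members, CSE4, the 2 members of each related list with the smallest p (up to 3 had any passed), and the most similar probe sets; NAP1, SAG1 and MF(ALPHA)1 were named after their values were seen. Alternatives left out each array, used a replicate block, array centring, a repeated quantile normalization, a filter on dim probe sets (mean under 8.82, the 25th percentile), all probe sets, a robust fit, an intensity trend, weights for the arrays, an unmoderated test, no suffix probe sets, averaged probe sets of a gene, or only wild-type replicates 2 and 4 or 1 and 3. Leaving out wild-type replicate 1 together with deletion replicate 2 was added after seeing the data. Plots were made in Python 3.11.15 with matplotlib 3.10.9.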

Additional observations from a re-analysis of the deposited data

Results flagged for a closer look

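In 4 of 26 wild-type groups checked, 1 of the 4 arrays stood apart from the others by more than Dixon's critical value. For independent, normally spread values that happens in about 5% of groups. The 26 groups were chosen, share the same 4 arrays, and several hold equal values, so the count cannot be read against that share. The share over all probe sets was not computed. HTA2 was low in wild-type replicate 3, at 12.30 where the others were at 12.39 to 12.41. CSE4 was high in wild-type replicate 2 (9.71), HIR2 was high in wild-type replicate 3 (9.66) and CLB5 was low in wild-type replicate 4 (9.12).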

How the results depend on the processing

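No histone probe set passed in any alternative, limma or unmoderated, at an adjusted p under 0.05, and none had an unadjusted p under 0.05. The median core difference ranged from -0.0035 to 0.058 when single arrays were left out, and was 0.0088 without wild-type replicate 1 and deletion replicate 2 together. The number of histone probe sets whose groups did not overlap was 0 to 1 when single arrays were left out; the 1 was HTA2 (0.096) without deletion replicate 1. Of 207 recomputed histone differences, 10 changed sign. When single arrays were left out the differences ran from -0.025 to 0.075 for HHF1, -0.0073 to 0.026 for HHT1, -0.016 to 0.12 for HHT2, -0.0042 to 0.096 for HTA2, -0.0027 to 0.029 for the HTA2 probe set with the suffix and -0.021 to 0.034 for HTZ1. Array weights gave -0.0054 for HTA2 and -0.00046 for HTZ1, and wild-type replicates 1 and 3 alone gave -0.0030 for HHT1 and -0.033 for HTZ1; the cause was not tested. The number of probe sets called over the whole table, 11, was less stable. It was 1 to 9 when single arrays were left out, 59 with array weights, 7 against wild-type replicates 1 and 3 alone, 5 with averaged probe sets, 4 without suffix probe sets, 1 with the unmoderated test, 1 without wild-type replicate 1 and deletion replicate 2, and 0 without dim probe sets (240 at an unadjusted p under 0.05), where HMT1 itself fell under the filter. Array weights also called 1 gene of the related lists, SWC7. The replicate block called 1. The deviations of same-numbered arrays from their group means correlated at -0.035, 0.17 and -0.51, and not every array was most like its own number. Centring on the group means ties these correlations together. They therefore cannot decide whether the numbers pair the samples.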

Other observations

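Exactly equal values on several arrays were frequent in the deposited table. Of all named probe sets, 26.1% held the same value on at least 2 arrays, 6.51% on at least 3 and 1.16% on at least 4. Among the histones, HTB1 held the same value in wild-type replicates 3 and 4 and deletion replicates 2 and 3, HHT1 in wild-type replicates 3 and 4 and deletion replicates 1 and 3, and HTA1 in wild-type replicates 3 and 4 and deletion replicate 1. CSE4 was equal in wild-type replicate 1 and all 3 deletion arrays, as 17 probe sets were in all 3 deletion arrays. HTB1, HHT1 and HTA1 were also among the core histone probe sets with the smallest spread between arrays.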
